A study of Homo sapiens with 6 samples.

Results

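ATP-binding cassette (ABC) transporter genes were selected by name from the deposited gene table, as protein-coding rows whose symbol is ABC, a subfamily letter from A to G and a number. This gave 46 of 58825 gene rows, with 45 distinct symbols, since ABCF2 is listed under 2 identifiers. A further row, ABCC13, matched the pattern but lists no protein-coding transcript. TAP1, TAP2 and CFTR belong to the family under other names and were kept apart. The libraries come from PC9, a human line of lung adenocarcinoma cells that depends on mutant EGFR and is inhibited by gefitinib. All cells carried extra FOXM1, which encodes a transcription factor of the cell division programme, overexpressed as the rs3742076_A allele in 3 libraries (A1, A2, A3) or as the rs3742076_G allele in 3 libraries (G1, G2, G3). All 6 libraries received 100 nM gefitinib for 24 h. The labels name no vector, promoter or clone for the overexpression. The libraries analysed here include none without gefitinib and none without added FOXM1, so neither effect on the transporters was measured.

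ABC proteins bind and hydrolyse ATP at paired nucleotide-binding domains, and most use this to move a substrate across a membrane. ABCB1 (P-glycoprotein), ABCG2 (breast cancer resistance protein) and several ABCC proteins (multidrug resistance proteins) export drugs or their conjugates from the cell, and gefitinib is known to interact with ABCB1 and ABCG2 as a substrate or an inhibitor. Other members move lipids, fatty acids, haem, peptides or bile salts, and ABCE1 and the ABCF proteins have no membrane domain and act in translation.

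Upstream sequence was taken from RefSeq (GRCh38.p14), where 35 of the 45 symbols matched. The unmatched symbols included ABCC3, ABCC1, ABCA4, ABCG1, ABCB4, ABCA8, ABCC8 and ABCB5. Where a gene had several starts, the one nearest to the 5′ end of its most abundant transcript was used. That end still lay 94743 bases from the start used for ABCB1, 77992 for ABCA5 and 71786 for ABCA9. It lay 53043 bases away for ABCA10 and 10018 for ABCA2. For genes without an estimate in any library no transcript was the most abundant, so that choice was arbitrary. The 250 bases before the start are printed for 4 genes: ABCC2 and ABCG2, which were expressed, ABCB1, which was listed without an estimate in 5 of 6 libraries, and ABCB11, which had the smallest p between alleles. Capitals mark matches to GCGTG, the core recognised by the aryl hydrocarbon receptor, or to its reverse complement. The intervals are chr10:99782390-99782639 on the plus strand for ABCC2, and on the minus strand chr4:88158640-88158889 for ABCG2, chr7:87600885-87601134 for ABCB1 and chr2:169031325-169031574 for ABCB11.
ABCC2: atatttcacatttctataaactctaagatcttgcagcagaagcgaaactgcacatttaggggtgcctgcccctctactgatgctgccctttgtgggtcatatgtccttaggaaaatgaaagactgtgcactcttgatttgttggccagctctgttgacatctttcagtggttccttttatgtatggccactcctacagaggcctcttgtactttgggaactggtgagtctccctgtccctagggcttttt
ABCG2: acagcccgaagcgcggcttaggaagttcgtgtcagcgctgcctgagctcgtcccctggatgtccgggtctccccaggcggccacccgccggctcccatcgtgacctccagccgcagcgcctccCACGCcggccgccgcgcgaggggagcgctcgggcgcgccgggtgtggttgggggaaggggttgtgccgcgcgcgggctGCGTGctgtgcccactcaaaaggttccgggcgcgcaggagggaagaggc
ABCB1: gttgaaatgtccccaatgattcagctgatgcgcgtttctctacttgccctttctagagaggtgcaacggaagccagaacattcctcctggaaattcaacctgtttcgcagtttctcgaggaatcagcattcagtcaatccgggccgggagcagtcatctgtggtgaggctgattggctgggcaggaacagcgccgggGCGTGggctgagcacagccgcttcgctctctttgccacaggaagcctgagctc
ABCB11: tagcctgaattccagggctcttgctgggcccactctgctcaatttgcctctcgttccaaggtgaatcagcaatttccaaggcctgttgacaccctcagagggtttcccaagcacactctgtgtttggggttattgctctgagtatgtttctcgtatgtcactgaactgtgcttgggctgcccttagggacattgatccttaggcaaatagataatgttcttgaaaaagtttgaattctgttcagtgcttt
GCGTG was found 2 times in the ABCG2 window, 1 time in the ABCB1 window and in neither of the other two. The GC box GGGCGG and the antioxidant response element core TGACNNNGC, also searched on both strands, had no match in these 4 windows. The ABCG2 window was 73.6% G or C, against 55.6% for ABCB1, 46.4% for ABCB11 and 45.6% for ABCC2.

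Among the 21 matched genes that reached 1 FPKM in at least 3 libraries, the median G and C content of the window was 66.4%, and among the 14 others it was 56.0%. The median over all 35116 windows in the table was 58.0%. A GC box was found in 14 of the 21 and 5 of the 14, against 42.6% of all windows. GCGTG was found in 13 of the 21 and 2 of the 14, against 32.2% of all windows. The antioxidant response element core was found in 6 of the 21 and 0 of the 14, against 10.9% of all windows. ABCC2, the second most abundant member, thus had none of the 3 motifs in a window poorer in G and C than the median of all windows. The share of all windows counts every listed start, whether or not its gene was expressed, while 1 start was kept per ABC gene. It was not matched to the 21 in expression or in G and C content. No share for expressed genes in general was computed, so the counts do not mark a trait of expressed ABC genes. Whether they follow the G and C content was not tested. These matches describe letters and were not tested as binding sites. The windows of ABCA2, among the 21, and of ABCB1, ABCA5, ABCA9 and ABCA10, among the 14, lie far from the transcript used.

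The values are FPKM, in which the fragments of a gene are divided by its length and by the mapped fragments of its library. In total 28 of the 46 rows (60.9%) reached 1 FPKM in at least 3 of the 6 libraries, against 55.0% of 19727 protein-coding genes, and 26 reached it in all 6. The family summed to 213 to 229 FPKM per library, 0.0767% to 0.0900% of all FPKM. Drug efflux pumps made up 42.7% to 44.0% of that sum in every library. At least 10 FPKM on average was held by 8 rows, among them ABCC3, ABCC2, ABCC5, ABCC1, ABCF1, ABCD3 and ABCF2. Along the order of the 28 expressed rows, 21 of 27 neighbouring pairs overlapped in their range over the 6 libraries. Such overlap does not compare 2 genes within a library. ABCF2 exceeded ABCF3, and ABCF3 exceeded ABCB6, in all 6 libraries although their ranges overlapped. Differences between adjacent ranks were not tested.

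**Figure D1:**
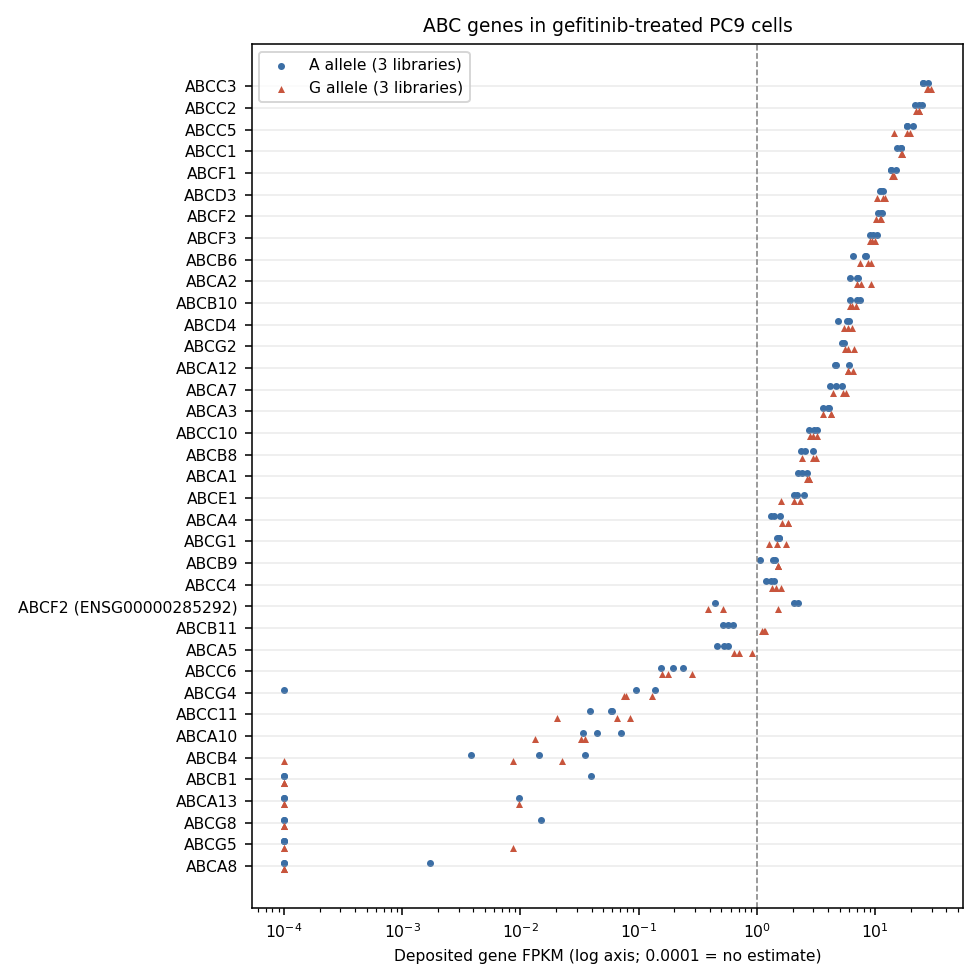
Deposited gene FPKM (log axis) of ABC rows with an estimate in at least 1 library, ordered by mean, with circles for the 3 A libraries and triangles for the 3 G libraries. The dashed line marks 1 FPKM, and ABCB1 has 1 point, from library A1, away from the value of 0.0001 that stands for no estimate.

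The conjugate exporters of the ABCC subfamily were the most abundant pumps. ABCC3 (ENSG00000108846, chromosome 17, 50634777 to 50692253, plus strand), an exporter of glucuronides and bile salts, stood at 28.3, 25.4 and 25.6 FPKM in A1, A2 and A3 and at 27.7, 29.6 and 27.6 FPKM in G1, G2 and G3. ABCC2 (ENSG00000023839, chromosome 10, 99782640 to 99852594, plus strand), the apical exporter of glutathione and glucuronide conjugates, stood at 25.0, 21.9 and 23.7 FPKM in the A libraries and 23.5, 22.0 and 23.5 FPKM in the G libraries. The lowest ABCC3 library exceeded the highest ABCC2 library on this scale, and the alleles overlapped for both genes. ABCC5 (ENSG00000114770), an exporter of nucleotide analogues and cyclic nucleotides, stood at 20.8, 18.7 and 18.8 FPKM against 14.4, 19.7 and 18.6 FPKM. ABCC1 (ENSG00000103222), the basolateral exporter of glutathione conjugates, stood at 16.5, 15.3 and 16.7 FPKM against 16.7, 17.0 and 16.6 FPKM. Library G1 was the lowest for ABCC5, and the alleles overlapped for ABCC5 and ABCC1.

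The 2 pumps best known for gefitinib itself differed from each other. ABCG2 (ENSG00000118777, chromosome 4, 88090150 to 88231628, minus strand) stood at 5.41, 5.28 and 5.31 FPKM in the A libraries and 6.61, 5.55 and 5.90 FPKM in the G libraries. ABCB1 (ENSG00000085563, chromosome 7, 87503633 to 87713323, minus strand) had 0.0393 FPKM in A1, equal to an estimated 4.93 read pairs, and no estimate in the other 5 libraries. ABCG2 was thus well above 1 FPKM in all 6 libraries, with the G libraries above the A libraries, and ABCB1 was at or near the limit of detection. In bulk RNA, fewer cells with a transcript and less RNA per cell cannot be told apart.

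The remaining pumps were low. ABCC10, a lysosomal and basolateral pump that transports taxanes, stood at 3.01, 2.78 and 3.22 FPKM in A and 2.80, 3.24 and 2.96 FPKM in G. ABCC4, an exporter of cyclic nucleotides and prostaglandins, stood at 1.39, 1.20 and 1.31 FPKM against 1.60, 1.34 and 1.46 FPKM. Both overlapped between alleles. ABCC6, which acts in ATP release from hepatocytes, stood at 0.239, 0.154 and 0.196 FPKM against 0.156, 0.175 and 0.284 FPKM, and it has near-identical pseudogene copies that make its value uncertain. ABCC11, an exporter of lipophilic anions, stood at 0.0589, 0.0599 and 0.0384 FPKM against 0.0840, 0.0205 and 0.0656 FPKM. It overlaps LONP2, a gene at 10.8 to 13.2 FPKM on the opposite strand, and the authors' strand setting is not given in the sources used here. Of the 10 pumps, 7 thus reached 1 FPKM in at least 3 libraries, and ABCC6, ABCC11 and ABCB1 did not.

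Of the 17 lipid and sterol transporters, 7 were expressed. All 17 together held 11.6% to 13.8% of the ABC sum. ABCA12, the keratinocyte transporter of glucosylceramide, stood at 6.05, 4.59 and 4.66 FPKM in A and 6.51, 5.84 and 5.84 FPKM in G. ABCA2, a lysosomal lipid transporter best known in brain, stood at 7.00, 6.16 and 7.18 FPKM against 6.96, 9.15 and 7.52 FPKM. ABCA1, the cholesterol exporter that loads apolipoprotein A-I, stood at 2.65, 2.39 and 2.21 FPKM against 2.73, 2.66 and 2.76 FPKM. Only ABCA1 of these 3 had all G libraries above all A libraries. ABCA4, the retinoid importer of photoreceptors, stood at 1.58, 1.32 and 1.38 FPKM in A and 1.63, 1.82 and 1.83 FPKM in G, also without overlap. ABCA3, the surfactant lipid transporter of alveolar type II cells, ranged from 3.61 to 4.27 FPKM. ABCA7, a phospholipid transporter, ranged from 4.12 to 5.64 FPKM and ABCG1, which exports cholesterol to high-density lipoprotein, from 1.26 to 1.75 FPKM.

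Mitochondrial and lysosomal transporters of the ABCB and ABCD subfamilies were expressed at low to middle levels. ABCB6, a porphyrin transporter, ranged from 6.48 to 9.18 FPKM, and ABCB10, a mitochondrial protein of haem synthesis, from 6.11 to 7.41 FPKM. ABCD4, of lysosomal vitamin B12 release, ranged from 4.86 to 6.42 FPKM, ABCB8 of the inner mitochondrial membrane from 2.37 to 3.14 FPKM and ABCB9, a lysosomal peptide transporter, from 1.07 to 1.51 FPKM. ABCB9 had all G libraries above all A libraries. It overlaps genes on the opposite strand, ARL6IP4 at 10.5 to 14.3 FPKM and OGFOD2 at 2.03 to 2.99 FPKM. On the same strand, AC068946 overlaps ABCB6 over 9223 bases. AC068946 stood at 3.93 FPKM in A1, where ABCB6 was lowest, and at 0.151 to 1.05 FPKM in the other libraries. AC005519 overlaps ABCD4 on the same strand, at 0.702 to 1.99 FPKM. The division of reads is therefore uncertain for ABCB6 and ABCD4.

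ABCD3, a peroxisomal importer of branched-chain fatty acids and bile acid precursors, stood at 11.7, 11.0 and 11.1 FPKM in A and 12.2, 10.4 and 11.6 FPKM in G. The alleles overlapped.

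The proteins without membrane domains were expressed throughout. ABCF1, a translation initiation factor, stood at 15.1, 13.6 and 13.7 FPKM in A and 13.9, 14.4 and 14.3 FPKM in G. ABCF2 (ENSG00000033050) stood at 10.5, 11.1 and 11.5 FPKM against 10.2, 11.3 and 10.9 FPKM. Its second identifier, ENSG00000285292, overlaps the first on the same strand and ranged from 0.389 to 2.24 FPKM, so the division of reads between them is uncertain. ABCF3 ranged from 8.99 to 10.3 FPKM and ABCE1, which recycles ribosomes, from 1.59 to 2.48 FPKM. None of these 5 rows separated the alleles.

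ABCB11 (ENSG00000073734, chromosome 2, 168915498 to 169031324, minus strand), the bile salt export pump of the hepatocyte, stood at 0.631, 0.565 and 0.516 FPKM in A and 1.18, 1.16 and 1.10 FPKM in G. The G mean of 1.15 FPKM ± 0.042 was 2.01 times the A mean of 0.571 FPKM ± 0.058 (SD, n = 3), a ratio that the authors' deposited table also gives. It was the only row to pass the expression threshold through the G libraries alone. Hepatocyte markers did not accompany it: 0 of 5 reached 1 FPKM in at least 3 libraries, their sum was 0.0143 to 0.0833 FPKM in A and 0.00489 to 0.110 FPKM in G, and ALB, APOA1, TTR and SERPINA1 were below 0.1 FPKM in every library.

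Of the 18 rows that did not reach the threshold, ABCA5 was the highest, at 0.460 to 0.565 FPKM in A and 0.642 to 0.907 FPKM in G, without overlap between alleles. Below 0.1 FPKM on average lay 16 rows. Of these, 9 had an estimate in at least 1 library: ABCG4 (at most 0.137 FPKM), ABCC11, ABCA10 (0.0706), ABCB4 (0.0353), ABCB1, ABCA13 (0.00970), ABCG8 (0.0149), ABCG5 (0.00863) and ABCA8 (0.00171). The other 7, ABCC9, ABCA9, ABCC8, ABCD2, ABCA6, ABCB5 and ABCC12, had no estimate in all 6 libraries. They include both sulphonylurea receptor subunits, ABCC8 and ABCC9.

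**Figure D2:**
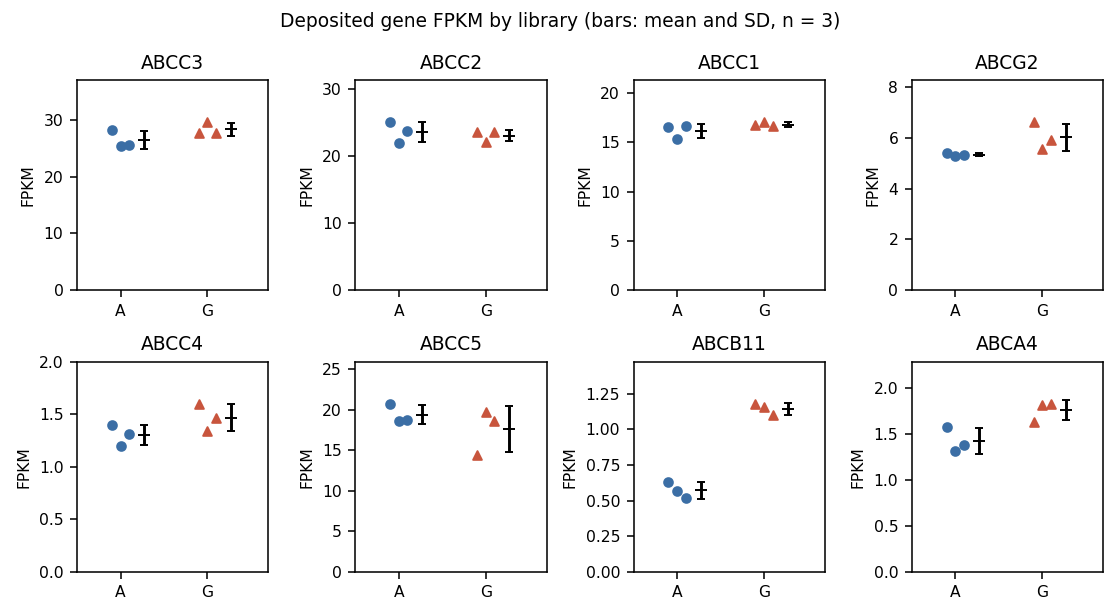
Deposited gene FPKM in each library for 6 efflux pumps, ABCB11 and ABCA4, on linear axes from 0, with circles for A, triangles for G and bars for the mean and SD of 3 libraries. ABCB11, ABCA4 and ABCG2 have all G libraries above A, while ABCC3, ABCC2, ABCC1, ABCC4 and ABCC5 overlap.

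The series asks whether the allele changes the response to gefitinib, and its design compares G with A. No ABC gene was called between the alleles. With limma on log2(FPKM + 1), adjusted over all 12787 tested genes, 0 of 28 ABC rows had an adjusted p under 0.05, against 14 genes or 0.109% of all. At an unadjusted p under 0.05 there were 2, among them ABCB11, which was higher in G. This is 7.14% of the members against 17.3% of all tested genes. The groups did not overlap in 7 of 28 rows (25.0%), against 24.9% of all tested genes. G lay above A in 6 rows (against 15.4% of all), among them ABCB11, ABCA4, ABCG2, ABCA1 and ABCB9, and below A in 1 row (against 9.57%). Both totals are near or below the background shares, and the 21.4% of members that lay above were not tested against the 15.4%. Leaving out A2, A3, G2 or G3 reduced the 14 calls to 5, 5, 6 and 5. Leaving out A1 raised the members at an unadjusted p under 0.05 from 2 to 5 of 28. The share of all tested genes rose as well, from 17.3% to 21.2%. The labels do not say whether replicates were separate cultures, so the p-values cover the spread among the deposited libraries alone, and that spread may be technical.

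ABCB11 had a log2 change of 0.45 (95% interval 0.25 to 0.65, limma adjusted p = 0.158). This size depends on the 1 added to FPKM: it was 0.90 with a pseudocount of 0.1 and 0.997 with 0.01. Because ABCB11 was tested only through its G values, its presence among the tested rows already favours a difference. The authors' deposited table marks it as significant, with a log2 ratio of 1.005, p = 0.000811 and q = 0.137, the 1 such row of 46 members, against 216 or 0.367% of all 58825 genes. ABCG2 had a log2 change of 0.15 (-0.03 to 0.32, limma adjusted p = 0.365), which was 0.086 without G1. The differences of ABCB11 and ABCG2 kept their direction under all 16 alternative settings and were called under none.

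The log2 change was 0.19 for ABCA4, 0.22 for ABCA12, 0.18 for ABCA2 and 0.12 for ABCA1, with limma adjusted p from 0.314 to 0.447. Among the pumps it was 0.10 for ABCC3 (-0.05 to 0.25), 0.10 for ABCC4 (-0.10 to 0.30), 0.05 for ABCC1 (-0.08 to 0.18), -0.14 for ABCC5 (-0.43 to 0.15; -0.013 without G1 and -0.23 without G2), -0.03 for ABCC2 (-0.19 to 0.13) and -0.00066 for ABCC10 (-0.19 to 0.19). Single libraries also moved ABCA2 (0.084 without G2), ABCA1 (0.079 without A3), ABCC4 (0.061 without G1) and ABCC1 (0.016 without A2) by over 1.5 times. The intervals of all 7 tested pumps lay within 1.5-fold in either direction on the log2(FPKM + 1) scale, as did those of 26 of the 28 rows. The 2 exceptions were ABCB11 and the second ABCF2 row, whose interval of -1.38 to 0.43 also passed 2-fold. These intervals limit the size of a difference and do not show that the alleles act alike.

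The median log2 change of the 28 rows was 0.07, against 0.02 for all tested genes, and 0.07 over the 26 rows at 1 FPKM or more in all libraries. Leaving out A2 or G2 lowered the median of the 28 rows to 0.033 and 0.038, with 0.017 and 0.023 for all tested genes. Positive changes made up 64.3% of the members and 55.1% of all tested genes. With equal sums per library these shares were 85.7% and 73.9%. There 9 of the 28 members had an unadjusted limma p under 0.05, all higher in G, against 24.5% of all tested genes in either direction. The share of all genes that were higher in G at that p was not computed for this scaling, so the 9 have no background of like direction. With equal sums of nuclear genes, a scaling chosen after seeing the data, the shares of positive changes were 82.1% and 63.6%. The direction of ABCC2, ABCC10, ABCF2, ABCF3 and ABCG1 turned from lower to higher under both of these scalings. Mitochondrially encoded genes held 22.1% to 22.2% of all FPKM in A and 17.7% to 19.7% in G, and their part in these differences was not tested.

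**Figure D3:**
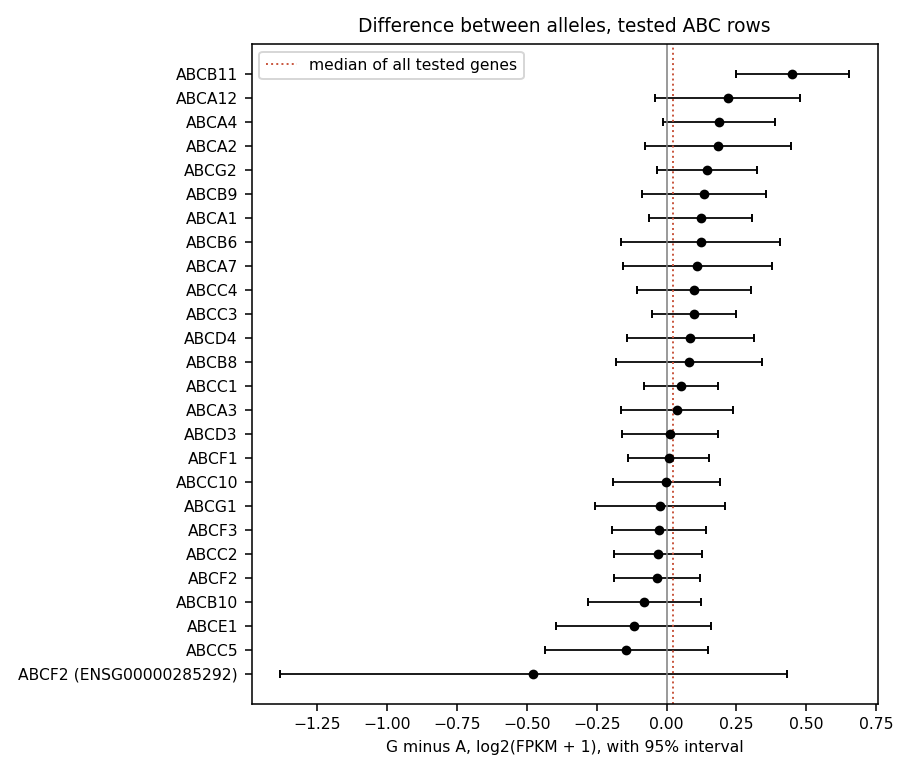
Difference between alleles (G minus A on the log2(FPKM + 1) scale) of tested ABC rows, with 95% intervals from limma, and the median of all tested genes as a dotted line. The interval of ABCB11 excludes 0 before adjustment, and the widest interval belongs to the second ABCF2 row.

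Transcript values were less stable than gene values for several pumps. For 15 of the 28 rows 1 transcript was the highest in all 6 libraries, and for 13 the highest transcript differed between libraries. The median coefficient of variation over the 6 libraries was 9.55% for the gene values and 25.2% for the most abundant transcript. ABCC2 is the clearest case: ENST00000647814 stood at 2.94, 28.8 and 29.2 FPKM in A and 21.0, 25.9 and 6.38 FPKM in G, while ENST00000370449 stood at 29.9, 0.107 and 0.529 FPKM in A and 9.34, 0.561 and 24.5 FPKM in G. The annotated starts of these transcripts lie 92 bases apart and they share their end. Their sum was 26.5 to 32.9 FPKM, so the division between them changed from library to library within both alleles and the sum changed little. For ABCC5 the division between ENST00000265586, ENST00000334444 and ENST00000437205 also changed within both alleles. Their sum was less steady, at 25.1 FPKM in G1 and 33.7 to 37.5 FPKM in the other libraries.

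**Figure D4:**
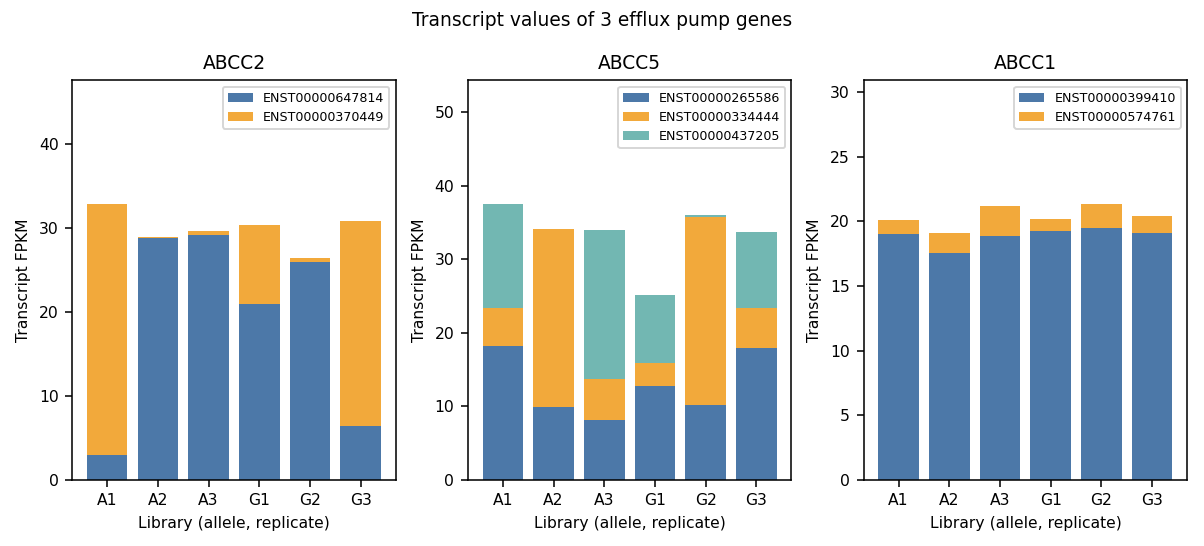
Stacked FPKM of the most abundant transcripts of ABCC2, ABCC5 and ABCC1 in each library, with 1 colour per transcript. For ABCC2 and ABCC5 the division between transcripts changes among libraries of 1 allele, and for ABCC1 ENST00000399410 holds most of the height in every library.

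In the other tested pumps the most abundant transcript was the same in all 6 libraries for ABCC3, ABCC1 and ABCG2 and differed between libraries for ABCC10 and ABCC4. ENST00000285238 of ABCC3 ranged from 24.9 to 30.2 FPKM, ENST00000399410 of ABCC1 from 17.6 to 19.4 FPKM and ENST00000237612 of ABCG2 from 6.74 to 8.58 FPKM. ENST00000372530 of ABCC10 ranged from 1.33 to 3.81 FPKM, and ENST00000645237 of ABCC4 from no estimate to 2.09 FPKM. In the test of 29990 transcripts, 0 of 83 ABC transcripts had a limma adjusted p under 0.05, against 44 or 0.147% of all, a number that fell to 27, 7, 15, 16 and 17 without A2, A3, G1, G2 and G3. At an unadjusted p under 0.05 there were 5 (6.02%), against 7.81% of all, and all 5 were higher in G, against 4.43% of all. Of these, ENST00000650372 and ENST00000463024 were below 1 FPKM in every A library and were tested only through their G values, so this direction rests partly on the filter. The groups did not overlap for 17 (20.5%), against 16.0% of all. The 4 with the smallest p were ENST00000650372 of ABCB11 (log2 change 0.47), ENST00000463024 of ABCC10 (0.56), a retained-intron transcript, ENST00000484213 of ABCD3 (0.44) and ENST00000370434 of ABCC2 (0.82), with limma adjusted p from 0.544 to 0.634. The A libraries of the ABCB11 transcript stood at 0.700, 0.624 and 0.574 FPKM and the G libraries at 1.3, 1.24 and 1.22 FPKM, the same order as in the gene row. This transcript was the highest of ABCB11 in all 6 libraries and enters the gene value, so the shared order is not separate evidence.

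The order of the levels depends on the length behind each gene value. The deposited gene value equals the length-weighted sum of its transcripts divided by a fixed gene length, which was within 1% of all exons annotated in GENCODE release 29 joined together for 23 of 28 rows. A gene therefore stands lower than the sum of its transcript FPKM where that length exceeds the length of its abundant transcripts. The sum was 1.00 to 5.64 times the gene value, with a median of 1.80. It was 5.64 times for ABCD4, with 8922 bases against 2336 for its most abundant transcript. For ABCA12, with 9614 against 9298 bases, it was 1.04 times. By that sum ABCC3 stayed first at 70.8 FPKM, followed by ABCC5 at 41.5, ABCC2 at 38.7, ABCD4 at 32.3 and ABCF3 at 29.2 FPKM. Of the first 10 rows, 8 were shared by both orders.

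The family members outside the naming rule were not called. TAP1 and TAP2, which load peptides for MHC class I, stood at 13.5 FPKM ± 0.85 and 9.81 FPKM ± 0.17 in A and at 12.7 FPKM ± 0.50 and 9.13 FPKM ± 0.12 in G (SD, n = 3). Their log2 changes were -0.08 and -0.09 (limma adjusted p = 0.547 and 0.398), and both turned positive with equal sums per library. The G libraries lay below the A libraries for TAP2 and overlapped them for TAP1. CFTR, the chloride channel, was at most 0.0311 FPKM and was not tested.

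Genes that work with the pumps gave no call either. Of 25 SLC drug and nutrient carriers 11 were tested, with 2 higher and 0 lower at an unadjusted p under 0.05 (10.5% and 6.82% of all tested genes). These were SLCO4A1, a thyroid hormone carrier, from 9.59 ± 0.20 to 11.4 ± 0.76 FPKM, and SLCO1B3, an organic anion importer, from 2.41 ± 0.30 to 3.12 ± 0.31 FPKM. Of 23 genes of glutathione synthesis and conjugation 21 were tested, with 0 higher and 4 lower. GSTK1, a mitochondrial and peroxisomal glutathione transferase, went from 55.3 ± 0.62 to 47.8 ± 1.51 FPKM and MGST2, a microsomal one, from 5.90 ± 0.77 to 4.45 ± 0.28 FPKM (SD, n = 3, limma adjusted p = 0.172 and 0.203). Neither passed the adjusted test. Of 10 targets of the sterol receptor LXR, which controls ABCA1 and ABCG1, 9 were tested with 0 in either direction. LPCAT3 had a log2 change of -0.14 and SCD one of 0.12.

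Of 32 regulators of ABC transcription 26 were tested, with 3 higher and 3 lower at an unadjusted p under 0.05. AHR, the ligand-activated receptor known to induce CYP1 enzymes and ABCG2, stood at 3.11, 3.07 and 3.32 FPKM in A and 4.48, 4.44 and 4.82 FPKM in G. Its log2 change was 0.42 (0.26 to 0.58, limma adjusted p = 0.146). FOXO3, a forkhead factor, had one of 0.25 (limma adjusted p = 0.188) and NFE2L2, the antioxidant regulator, one of -0.05, which was positive with equal sums per library. Among enzymes that metabolise gefitinib and related phase I enzymes, 3 of 6 were tested. CYP3A4, CYP3A5 and CYP2D6 were below 1 FPKM in every library and were not tested. CYP1B1 stood at 43.8, 41.4 and 43.5 FPKM in A and 52.0, 58.7 and 59.2 FPKM in G, a log2 change of 0.39 (0.23 to 0.55, limma adjusted p = 0.146). CYP1A1, named here after its values were seen, stood at 2.06, 1.84 and 2.00 FPKM against 2.77, 3.02 and 2.69 FPKM (limma adjusted p = 0.162). POR, the remaining tested gene of this list and also named afterwards, had a log2 change of -0.015 (limma adjusted p = 0.900). AHR, CYP1B1 and CYP1A1 thus had all G libraries above all A libraries and missed the adjusted threshold. So did 6 of the 26 tested regulators and 2 of the 3 tested enzymes in their lists, against 15.4% of all tested genes. ARNT, another listed regulator and also named afterwards, overlapped between alleles, with a log2 change of 0.13 (limma adjusted p = 0.570). Whether AHR, CYP1B1 and CYP1A1 move together or with ABCG2 was not tested.

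The libraries held an estimated 19765000 to 23289000 read pairs, and 12451 to 12858 genes reached 1 FPKM. FOXM1 was 25.5, 10.5 and 10.1 FPKM in A and 14.6, 14.3 and 13.96 FPKM in G, a log2 change of 0.03 (exact two-sided permutation p = 1, smallest possible 0.1), which was 0.44 without A1, the library that stood apart. It checks only that both groups express FOXM1. All 8 epithelial markers were expressed, against 0 of 6 leukocyte, 1 of 6 fibroblast and 0 of 5 endothelial markers.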

How the data were processed

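Poly(A) RNA of 6 PC9 libraries was sequenced as read pairs, per the labels' protocols. The submitters' processing notes name cutadapt 1.9, HISAT2 2.0.4 and StringTie 1.3.4d. They also name a mouse build, while the files hold human Ensembl identifiers, and 94.6% of the 206348 transcripts that GENCODE release 29 also lists lie at its GRCh38 positions, so positions are given on GRCh38. Which test, strand option and annotation release were used is not given in the sources used here. The authors deposited FPKM per gene and transcript, in which 0.0001 stands for no estimate, together with the fold ratio of the groups, the log2 of that ratio, a q-value and a p-value, per the file headers.

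The name rule was read as a transcript type field that lists protein_coding, since only 5 members hold that type alone. Genes and transcripts were tested where 3 or more of the 6 libraries reached 1 FPKM, and were compared on log2(FPKM + 1), G minus A, with limma 3.58.1 (variance trend, R 4.3.3) and Benjamini-Hochberg adjustment over all tested features, with a threshold of 0.05. FPKM are not counts, so no count model was used. Depth was estimated from the step that 1 read pair makes in low values, sought in a preset window. The fit was checked on simulated data. Python 3.11.15 with pandas 2.3.3 read the tables. The members, gene lists and naming rule were chosen with earlier results of these data known. Named with values were all pumps, the 8 members of highest mean, the 8 of smallest p and, per other list, the 2 genes of smallest p (1 where fewer than 5 were tested). Alternatives changed the pseudocount, filter, scaling, variance model, replicate block and libraries. Some members are counted in the totals and are not reported here by name or value.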

Additional observations from a re-analysis of the deposited data

How the results depend on the processing

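No ABC gene or transcript was called under any of the alternatives run. The smallest adjusted p of an ABC gene was 0.0858, for ABCB11 with equal sums per library. The 14 gene calls became 1 with no filter on low values, 5 with a filter of 0.1 FPKM, 6 with quantile normalization and 4 without the variance trend, and 5 to 20 when each library was left out. The 44 transcript calls became 23 with a pseudocount of 0.1, 25 with a filter of 0.1 FPKM and 7 to 37 without single libraries. With the replicate number as a block, gene and transcript calls became 0 and 0. Same-numbered libraries correlated at 0.073, 0.015 and 0.040 in their deviations from the group means. Libraries of different numbers correlated at -0.056 to 0.016. These values do not settle whether the numbers mark pairs. The main fit used no block, and the block was run as an alternative only. The median log2 change of the ABC genes was 0.0095 with no filter and 0.16 with equal sums per library, where that of all genes moved from 0.02 to 0.11. At 5 FPKM, 16 rows counted as expressed in place of 28. FOXM1 had a negative change without A2 or A3, and its leave-one-out values ran from -0.19 to 0.44.

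The direction of members near 0 turned with the scaling. With equal sums per library the log2 change was 0.016 for ABCB10, 0.081 for ABCC10, 0.073 for ABCC2, 0.066 for ABCF2, 0.070 for ABCF3, 0.041 for ABCG1, 0.057 for NFE2L2, 0.020 for TAP1 and 0.0052 for TAP2. With equal sums of nuclear genes, chosen after seeing the data, it was 0.034 for ABCC10, 0.013 for ABCC2, 0.0093 for ABCF2, 0.014 for ABCF3 and 0.0036 for ABCG1. It was -0.0095 for ABCA3 with quantile normalization, and -0.0094 for ABCD3 and -0.014 for ABCF1 with median-ratio factors. The cause was not tested. When each library was left out, the log2 change ran from -0.0038 to 0.10 for ABCA3, -0.044 to 0.038 for ABCC10, -0.079 to 0.011 for ABCC2, -0.033 to 0.069 for ABCD3, -0.019 to 0.052 for ABCF1, -0.065 to 0.0048 for ABCF2, -0.069 to 0.012 for ABCF3 and -0.096 to 0.045 for ABCG1. Rows averaging below 0.1 FPKM rested on at most 18.4 estimated read pairs in any library and were not tested in the main fit. Small differences between alleles could not be resolved for them at this depth, and no limit of detection was computed.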
